A study of Mus musculus with 42 samples.

Results

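The cytosolic ribosomal proteins were followed across 42 single retinal cells of the developing mouse. Members were all genes whose platform symbol is Rpl or Rps with a number and at most 1 of the letters a, l or x behind it, together with Rplp0, Rplp1, Rplp2 and Rpsa. The platform annotation named 74 such genes. Of these, 46 genes (24 of the large and 22 of the small subunit) had at least 1 probe set listed with that gene as its only symbol, out of 18194 genes measured in this way, and they are the members described unless stated otherwise. The other 28 genes were measured only by probe sets that are listed with several symbols, such as predicted copies of the same gene. In each cell a gene took the signal of its strongest probe set, and a signal of at least 1000 counted as presence.

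The cytosolic ribosome is built from ribosomal RNA and a single copy of most ribosomal proteins, and nearly all of the protein genes are transcribed together in every growing cell. Proteins named Rps belong to the small subunit, which reads the message, and proteins named Rpl to the large subunit, which joins the amino acids. Rplp0, Rplp1 and Rplp2 form the stalk of the large subunit that recruits translation factors. In vertebrates, messages of these genes typically begin with a cytidine and an unbroken run of pyrimidines, the terminal oligopyrimidine tract, which places their translation under control of the mTOR pathway.

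The cells came from dissociated retinas of CD1 mice, an outbred strain, and were taken at embryonic day 12.5 (E12.5, 11 cells), E13.5 (4 cells), E14.5 (2 cells), E15.5 (1 cell), E16.5 (11 cells) and on the day of birth (P0, 13 cells). No genotype or treatment was compared, and the labels give all cells as retinal progenitors. The study classed some of the cells afterwards as transitional, a class that the labels do not hold and that was not used. Each cell was picked with a capillary after papain treatment, and its cDNA was amplified by 35 cycles of PCR from an oligo dT primed reverse transcription before hybridization to 1 array. No animal or litter is named for a cell, so that a stage counted as a single sample, stages were compared without a test, and intervals on shares cover counting error only.

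The number of genes present per cell, the measure of depth available here, was between 1386 and 5253 with a median of 3034. Of the defining markers of progenitors, Ccnd1 and Pax6 were present in 41 cells each, Dkk3 in 40, Sox2 in 34, Fgf15 in 32 and Sfrp2 in 29. The 6 markers together were present in 62 of 78 gene and cell combinations at P0 and in 61 of 66 at E12.5. Without Sfrp2, present in 2 of 13 cells at P0 and 11 of 11 at E12.5, the counts were 60 of 65 at P0 and 50 of 55 at E12.5. The study had classed cells as progenitors by a score from genes associated with Ccnd1, Fgf15, Sfrp2 and Crym. It reports several ribosomal protein genes among those associated with Ccnd1. Detection of these markers and of the members was therefore not independent of the choice of cells. On the E16.5 arrays of cells J1, J2, J4, E8 and F1, called the 5 arrays below, the 18 hybridization control probe sets departed from their usual pattern by an SD of 0.64 to 0.67 (log2), while the remaining 37 arrays reached 0.20 at most. E13.5 cell A6 and E16.5 cell F1 had the most uneven coverage of Actb, with ratios of the 3′ to the 5′ probe set of 33.7 and 47.5, against a median of 2.30 over the 42 cells. The main E16.5 results are given with and without the 5 arrays.

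The annotated start sites of the members differ in the sequence that they carry, and these are shown because the pyrimidine run is the best known mark of the family. The RefSeq promoter table of GRCm38.p6 held 59 of the 74 named genes. A C at the annotated first transcribed base, followed by at least 4 pyrimidines, was found for 14 of the 59 genes (23.7%), against 3.01% of the 27025 genes in the table. When the run was allowed to begin up to 5 bases to either side of the annotated start, 28 of the 59 genes (47.5%) held it, against 21.2% of all genes. In the following windows of 10 bases before and 20 bases from the annotated start, on the strand of the gene, capitals mark the run.
Rpl38, chr11:114668570-114668599, plus strand: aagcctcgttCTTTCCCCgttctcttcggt
Rplp2, chr7:141447641-141447670, plus strand: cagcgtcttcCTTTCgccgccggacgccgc
Rpl35, chr2:39005112-39005141, minus strand: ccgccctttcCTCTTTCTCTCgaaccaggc
Rps18, chr17:33955646-33955675, minus strand: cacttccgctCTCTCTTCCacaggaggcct
Rps10, chr17:27635225-27635254, minus strand: gcgcacgcccCTTCCTTTCCagcctccgcc
Rpl37a, chr1:72711250-72711279, plus strand: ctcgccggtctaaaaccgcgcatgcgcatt
Rplp0, chr5:115559457-115559486, plus strand: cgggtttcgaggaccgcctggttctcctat
Rpsa, chr9:120127756-120127785, plus strand: ttatttaaggacgtcatttccggccgcccg
Rps4x, chrX:102189372-102189401, minus strand: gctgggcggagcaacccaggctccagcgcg
The first 5 genes carry the run at the annotated base and the other 4 do not. A missing run says only that these letters are not at this annotated base.

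The members were among the most widely detected genes in the series. Several ribosomal protein genes were in the lists by which the study classed the cells. The part of that choice in this result was not tested. Of the 46 members, 23 were present in all 42 cells, against 57 of all 18194 genes (0.313%). The 12 large subunit members in every cell were Rpl4, Rpl6, Rpl7, Rpl7a, Rpl8, Rpl10a, Rpl11, Rpl13a, Rpl27, Rpl35, Rpl37a and Rplp0. The 11 small subunit members were Rps3, Rps4x, Rps7, Rps9, Rps10, Rps15, Rps18, Rps19, Rps20, Rps24 and Rpsa. A further 11 members were present in 36 to 41 cells and Rps28 in 31 cells. Below these lay a gap, with 5 members in 9 to 18 cells, 3 members in 3 cells and 3 members in none. Over all member and cell combinations 77.8% were present (1503 of 1932, 95% Clopper-Pearson interval 75.9 to 79.6%), against 17.0% for all genes. Combinations that share a gene or a cell are not independent, which the interval does not take into account. The lists set beside them were present less widely, with 36.8% for 76 mitochondrial ribosomal proteins, 55.5% for 58 translation factors and 60.3% for 39 proteasome subunits.

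**Figure D1:**
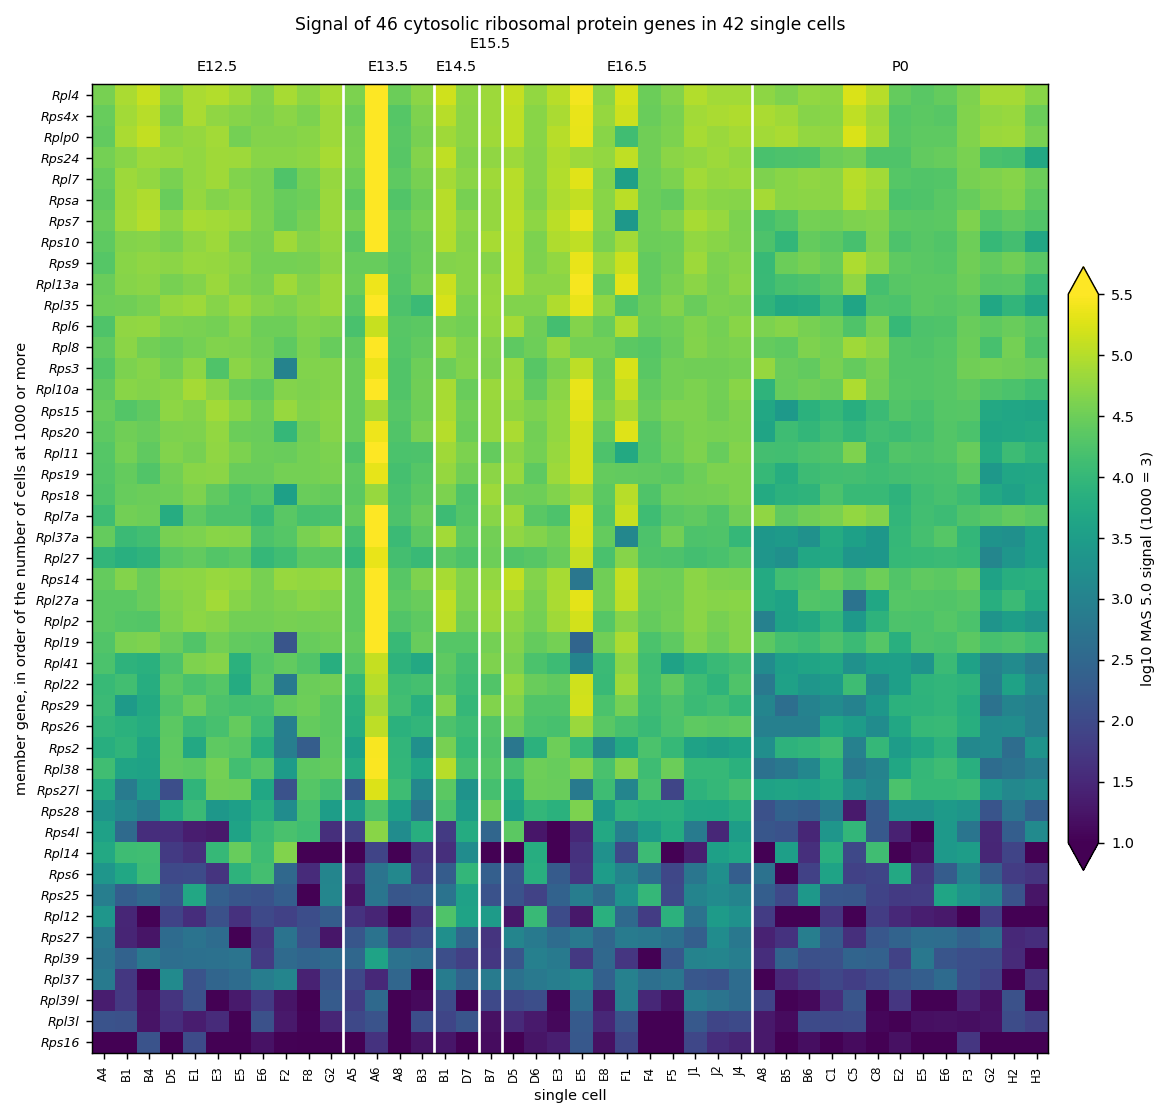
Signals of the 46 members (rows, in order of the number of cells at 1000 or more) in the 42 cells (columns, grouped by stage). Colour gives the log10 of the MAS 5.0 signal, where 3 is the level for presence. The rows from Rpl4 to Rpl27 are at 1000 or more in every cell, the 11 lowest rows are dark in most cells, and E13.5 cell A6 is the brightest column.

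Most of the members with few positive cells were measured by a probe set that did not follow the other probe sets naming the same gene. Rps16 was at most 174 in any cell by its own probe set, a count of 0 of 42 cells that allows a share of up to 7.14%, and was present in all 42 cells when probe sets with several symbols were included. Rpl12 (9 cells), Rps6 (15 cells) and Rpl14 (18 cells) also reached all 42 cells in this way, Rps25 (12 cells) reached 41, Rps27 and Rpl37 (3 cells each) reached 40, and Rpl39 (3 cells) reached 38. Rps6 is the protein phosphorylated by S6 kinase. With these probe sets 47 of the 74 named genes were present in all 42 cells and 70 in at least 35 cells. Of the 28 genes measured only by such probe sets, 20 were present in all 42 cells, and the fewest cells were 35 for Rpl36. These probe sets may also read processed copies or a paralog. Rpl32 and Rpl32l shared all their values in the stage comparison for this reason.

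**Figure D2:**
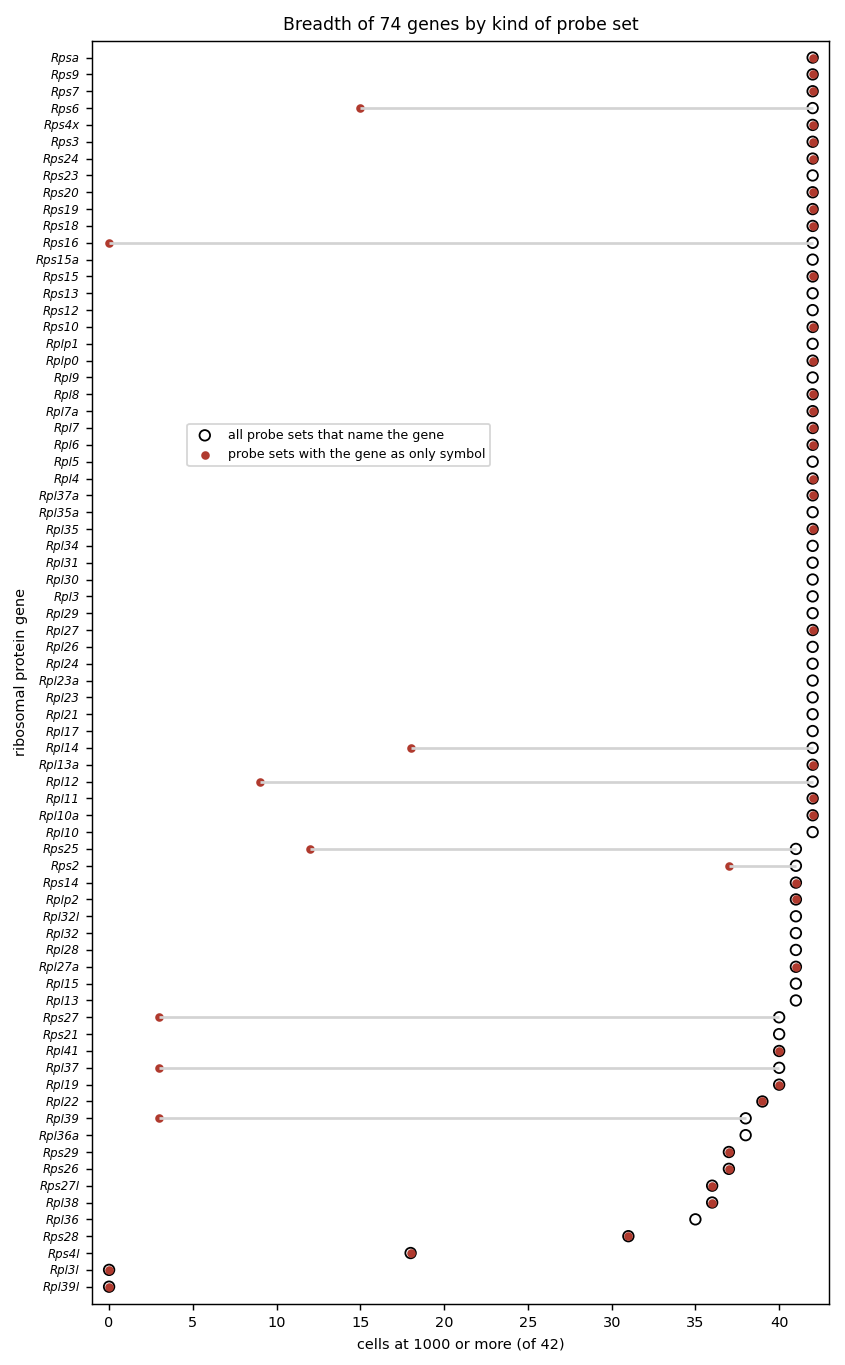
Number of cells, of 42, in which each of the 74 named genes was present. Filled points are probe sets with the gene as their only symbol (46 genes) and open circles all probe sets that name the gene. For 8 of the 11 members under 31 cells the open circle lies at 38 cells or more, while Rps4l stays at 18 and Rpl3l and Rpl39l at 0.

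The paralogs differed in how widely they were detected. Rpl3l, known from striated muscle, was at most 192 in any cell, while Rpl3 was present in 42 cells by probe sets with several symbols. Rpl39l, known from the testis, was at most 885 and was called in no cell. Rps4l, listed by RefSeq as a transcribed pseudogene, was present in 18 cells, among them 4 of 13 at P0 and 5 of 11 at E12.5. Its signals in these cells had a median of 5563 with a highest value of 49144 in E13.5 cell A6. Rps4x, the X-linked gene, was present in all of these 18 cells. Rps27l, a target of p53, was present in 36 cells, including 13 of 13 at P0 and 8 of 11 at E12.5, while Rps27 was present in 3 cells, or 40 with probe sets of several symbols. Rpl22l1, which the symbol rule leaves out, was present in 38 cells, of which 36 also had Rpl22.

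Different probe sets of 1 gene did not measure the gene equally well. For Rpsa, the laminin receptor precursor and a small subunit protein, 1 probe set was present in 42 cells and the other in none. The same held for Rps4x, while the 3 probe sets of Rps3 were present in 42, 6 and 0 cells. For Rps10 and Rpl35, 5 of 6 probe sets were present in 41 or 42 cells and 1 in a single cell. In Rps18, 3 probe sets were present in 42 cells and 3 in at most 3 cells. In total, 14 probe sets in 10 or fewer cells belonged to 9 genes that were present in all 42 cells. Levels of different genes were therefore not compared. Of the 100 member probe sets, 69 carry a mark in their name for probes shared between transcripts (69%), against 22.8% of all probe sets with 1 symbol. With the unmarked probe sets alone, 4 members were present in all 42 cells.

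Most absences of the widely present members had signals near the level for presence. In the 12 members found in 31 to 41 cells, 48 combinations were absent, and their median signal was 617. Of these, 29 lay between 500 and 1000 and 2 lay under 100. At E12.5, 9 of 132 combinations of these members were absent (6.82%), at E16.5 5 of 132 (3.79%) and at P0 32 of 156 (20.5%). Nearest to the level over all members were Rps3 at 1014 in E12.5 cell F2, counted as present, and Rps29 at 981 in P0 cell C5, counted as absent.

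A few absences stood against high signals in the same cell. In E16.5 cell E5, which had the highest signals of all cells for Rps15 (201801), Rps9 (225457) and Rpl13a (278125), Rps14 was at 615 and Rpl19 at 295. Rps14 was present in each of the other 41 cells, with a median of 35388 over all cells. In E12.5 cell F2, Rpl19 was at 152, and Rps2, Rps26 and Rpl22 were at 844, 869 and 684. In E16.5 cell F1, Rps20 was at 191832 while Rps7, Rpl37a and Rpl7 were at 2496, 1207 and 3585, below all other cells for these 3 genes. In these cells the members did not all move together.

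The number of members present per cell differed little between the embryonic stages and was lowest at P0. The E12.5 cells had a median of 36 members with a range of 33 to 39, the E13.5 cells 36 with 34 to 37, the E16.5 cells 37 with 33 to 41, and the P0 cells 33 with 30 to 38. Without the 5 arrays the E16.5 cells had a median of 36 with a range of 33 to 38. The E14.5 cells had 37 and 40 members and the E15.5 cell had 36. At E12.5, 78.9% of combinations were present (interval 75.0 to 82.3%), at E16.5 80.8% (interval 77.1 to 84.2%) and on the day of birth 73.4% (interval 69.7 to 76.9%), while for all genes the shares were 15.3%, 16.8% and 18.1%. These intervals treat combinations as independent, which they are not, and do not serve to compare stages. Without the 5 arrays the E16.5 share was 78.3% for the members and 11.97% for all genes. The mitochondrial ribosomal proteins were present in 33.97%, 36.4% and 39.2% of combinations at the same 3 stages.

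The share of the summed signal of all genes that the 46 members held was also lowest at P0. It was 3.46 to 6.28% at E12.5 with a median of 4.92%, 3.92 to 7.39% at E16.5 with a median of 5.88%, and 1.80 to 3.88% at P0 with a median of 2.87%. Without the 5 arrays the E16.5 median was 5.37% and the highest cell 6.12%. The E13.5 cells A5, A6, A8 and B3 lay at 3.31, 8.70, 2.99 and 3.28%, the E14.5 cells at 8.06 and 4.95%, and the E15.5 cell at 6.58%. All 13 P0 cells lay below the lowest E16.5 cell, and 10 of them lay below the lowest E12.5 cell. No P0 cell had fewer genes present than the lowest E12.5 cell.

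**Figure D3:**
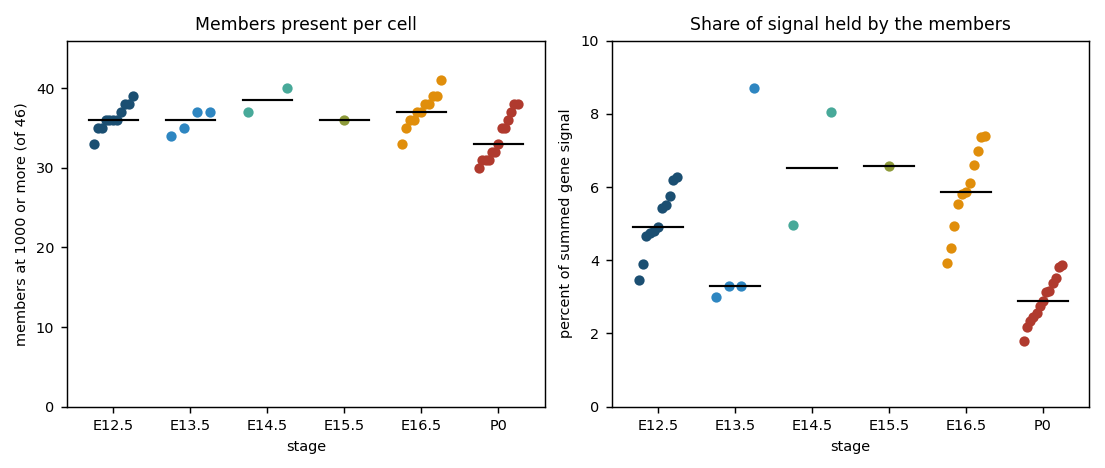
Members present per cell, of 46 (left), and percent of the summed signal of all genes held by the members (right), by stage. Each point is 1 cell and each bar the median of the stage. The P0 cells span 30 to 38 members and 1.80 to 3.88% of the signal, and E13.5 cell A6 is the highest at 8.70%, followed by E14.5 cell B1 at 8.06%.

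Cells also differed in the signal of members that all of them expressed. For the 23 members present in every cell, the median difference on the log2 scale from the median of each member over the cells was highest in E13.5 cell A6 at 3.05, followed by E16.5 cell E5 at 2.34. It was lowest in P0 cells H3 and A8 at -1.38 and -1.34. Array scale was not removed from these differences. The level of the hybridization controls was also highest in A6 and E5, at 385411 and 192417, against medians of 71461 at E12.5 and 54620 at P0. In H3 and A8 it was 54620 and 121634. The part of array scale was not tested. In P0 cell C5 the large subunit members lay at 0.81 and the small subunit members at -0.55. The spread of a member over the 42 cells (SD of log2 signals) was narrowest for Rpl6 (0.72), Rpl8 (0.73), Rps9 (0.80), Rps4x (0.87) and Rpsa (0.90). It was widest for Rpl37a (1.82), Rpl27 (1.52), Rpl35 (1.46), Rps15 (1.38) and Rps20 (1.36). The median SD was 1.10 over the 23 members and 1.03 over the other 34 genes present in all cells.

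Most members had lower signals at P0 than at E12.5, by amounts that ran from 20.3-fold to almost none. Stage medians, floored at 1000, could be compared for 37 members that reached 1000 in at least 1 of the 2 stages. Of these, 24 were more than 2-fold lower at P0 and 0 were more than 2-fold higher, against 14.4% lower and 27.8% higher among the 2918 genes compared. The median log2 ratio was -1.44 for the members and 0.32 for all genes, and 35 of the 37 members lay below 0. The lower members comprised 12 of 19 in the large and 12 of 18 in the small subunit. Among genes with a stage median of 10000 or more, a limit added after the values were seen, 22 of 33 members were lower, against 22.8% of 390 genes.

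The lowest ratio of floored medians was that of Rpl38. Rpl38, whose loss in the mouse changes the translation of Hox messages, had signals of 395 to 12894 in the 13 P0 cells with a median of 1028, against 2960 to 35603 with a median of 20844 in the 11 E12.5 cells. It was 7352 to 46137 at E16.5. The E13.5 cells A5, A6, A8 and B3 were at 5997, 298593, 9655 and 4980, the E14.5 cells B1 and D7 at 102868 and 14826, and the E15.5 cell at 20174. The P0 median was 20.3-fold lower than that at E12.5 (log2 ratio -4.34), and 8 of 13 P0 cells lay below all E12.5 cells. The cells of the 2 stages overlapped, since the highest P0 cells reached the range of E12.5.

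Rps29, a zinc finger protein of the small subunit, had signals of 428 to 9221 with a median of 1105 in P0 cells, against 2802 to 32027 with a median of 17579 in E12.5 cells. The E16.5 cells were at 9980 to 158103 with a median of 17701, so that all 13 P0 cells lay below them. Genes without overlap between P0 and E16.5 were not counted over all genes, so this separation says nothing particular to Rps29. At the other stages Rps29 was at 7380, 76568, 13456 and 6810 in the E13.5 cells, at 44215 and 9833 in the E14.5 cells and at 44927 in the E15.5 cell. Its P0 median was 15.9-fold lower than that at E12.5. All 13 P0 cells lay below the E12.5 median, and 9 of them lay below every E12.5 cell.

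Rplp2, a protein of the stalk, had signals of 966 to 20439 with a median of 5134 in P0 cells, against 19464 to 53841 with a median of 36565 in E12.5 cells. The E16.5 cells were at 20795 to 155968. Here 12 of 13 P0 cells lay below every E12.5 cell, and the P0 median was 7.12-fold lower. Rplp1, its partner in the stalk, was measured only by probe sets with several symbols, and its P0 median was 10559, against 44525 at E12.5. Rplp0, the base of the stalk, was not lower. It had signals of 21492 to 174196 with a median of 60158 in P0 cells, against 26010 to 122031 with a median of 54187 in E12.5 cells.

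Rpl35, which lies near the exit of the peptide tunnel, and Rpl27a were the members whose P0 cells did not overlap with E12.5. Rpl35 was at 4460 to 24221 in P0 cells with a median of 9268, against 32314 to 68332 with a median of 47687 in E12.5 cells. Rpl27a was at 514 to 21495 with a median of 11611 in P0 cells, against 23556 to 74863 with a median of 44544 in E12.5 cells. Sfrp2 was the only other gene with all P0 cells below all E12.5 cells (3 of 2918 genes, 0.103%), and 2 genes, Crym and Rlbp1, had the reverse (0.0685%). The E16.5 cells were at 18612 to 224572 for Rpl35 and at 30834 to 210691 for Rpl27a, and 3 of 11 E16.5 cells for Rpl35 and 0 for Rpl27a lay below every E12.5 cell.

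The other members past 2-fold had log2 ratios between -3.42 and -1.09. Rpl37a was at -3.42, Rps26 at -2.93, Rps15 at -2.61, Rpl27 at -2.48, Rpl41 at -2.41 and Rpl22 at -2.21. Rps24, Rps18, Rps28, Rps14, Rps7, Rps19, whose gene is mutated in Diamond-Blackfan anemia in humans, Rps20 and Rps10 lay between -1.70 and -1.41. The ratio of Rps28 was set by the floor, since its medians were 3159 at E12.5 and 260 at P0. Rpl11, Rpl10a, Rps2 and Rpl13a lay between -1.13 and -1.09, close to the limit. Rpl14 was at -3.39 by a probe set present in 18 cells that differed from the other probe sets of the gene. This ratio was also set by the floor, with medians of 10506 at E12.5 and 82.8 at P0. In 18 of the 24 lower members, 7 or more of the 13 P0 cells lay below every E12.5 cell. These members were selected for low P0 medians, and the count was not made for all genes, so it says nothing particular to the members.

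At the other end, Rpl7a had the highest ratio at 0.58. It was at 9321 to 59523 with a median of 25605 in P0 cells, against 6150 to 34407 with a median of 17167 in E12.5 cells. Rplp0 was at 0.15, and Rpsa, Rpl7 and Rps4x were at -0.04, -0.04 and -0.07. Rpsa was at 16996 to 94450 in P0 cells, against 25088 to 90524 in E12.5 cells. Rps4x was at 20576 to 117524 in P0 cells, against 28802 to 105782 in E12.5 cells. For these 5 genes the ranges of both stages overlapped widely. Rps6 was at -0.16, a value set by the floor, since its medians by single-symbol probe sets were 1120 at E12.5 and 87.8 at P0. With probe sets of several symbols its medians were 76525.5 at E12.5 and 51964.8 at P0. Rpl8, Rps3, Rpl6, Rps27l and Rpl4 lay between -0.35 and -0.61. Rps9 at -0.76 and Rpl19 at -0.83 were the nearest to the 2-fold limit among those not past it.

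**Figure D4:**
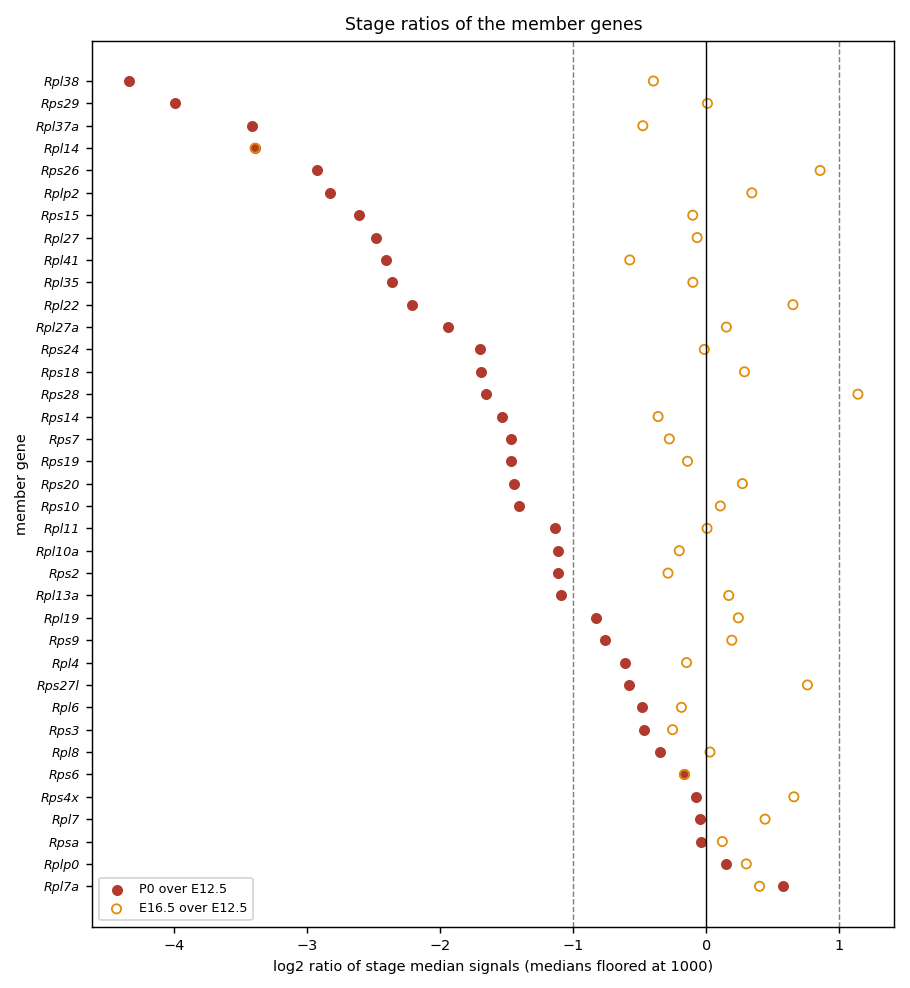
Log2 ratios of stage median signals, floored at 1000, for the 37 members compared between P0 and E12.5. Filled points are P0 over E12.5 and open circles E16.5 over E12.5, and dashed lines mark 2-fold. The filled points run from -4.34 for Rpl38 to 0.58 for Rpl7a, while the open circles stay within 2-fold except for Rpl14 and Rps28.

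**Figure D5:**
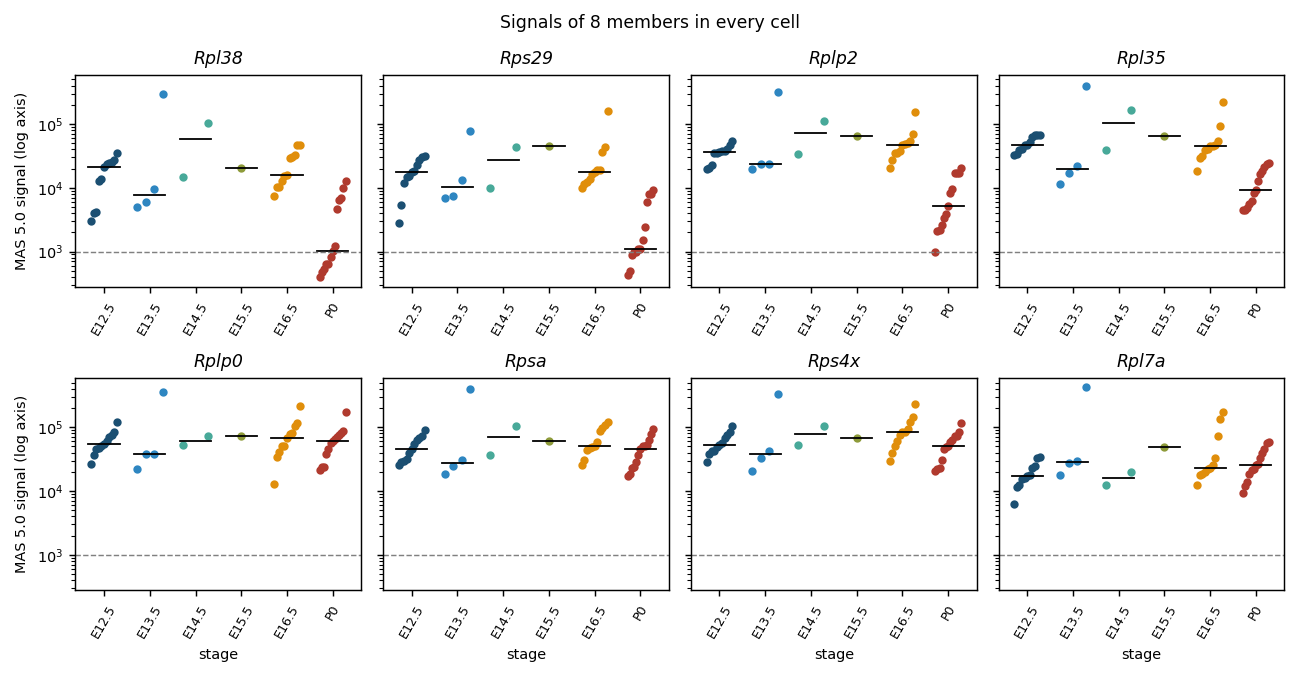
Signals of 8 members in every cell by stage, on a log axis, with 1 point per cell, a bar for the median of the stage and a dashed line at 1000. The upper row holds members with far lower signals at P0, with medians of 1028 for Rpl38 and 9268 for Rpl35. In the lower row the P0 medians, from 25605 for Rpl7a to 60158 for Rplp0, lie in the range of the E12.5 cells.

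Probe sets were also compared on their own. Of 71 single probe sets of the members with a stage median of 1000 or more, an alternative added after the values were seen, 52 were more than 2-fold lower at P0 and 0 were higher, against 14.7% lower and 27.2% higher among 3871 probe sets with 1 symbol. Among 18 members with several such probe sets, all probe sets were past 2-fold for 14, some for 1 and none for 3. The 5 probe sets of Rpl35 ranged from -2.73 to -2.25, and the 3 probe sets of Rpl7 from -0.12 to 0.40. Of the 28 genes measured only by probe sets with several symbols, 20 were more than 2-fold lower, against 17% of 3269 genes, with Rps21 at -3.93, Rpl36a at -3.34 and Rpl36 at -3.27. Rpl5 and Rpl3 were at 0.11 and 0.41. Fau, which encodes a ribosomal protein fused to a ubiquitin-like protein and is outside the symbol rule, was at -2.04, and Rps3a1 was at 0.09.

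Most of the 24 lower members stayed past 2-fold under 2 other scalings of the arrays, while some members crossed the limit. With arrays quantile normalized, 20 members were lower and 1, Rpl7a, was higher, against 16.4% lower and 23% higher among all genes. With arrays shifted to a common median of the 57 genes present in every cell, 23 of which are members, 18 were lower and again Rpl7a was higher, against 11.3% and 37% of all genes. The median ratio of all genes was 0.13 and 0.61 under these scalings, and that of the members relative to it was -1.67 and -1.70, against -1.77 as deposited. None of the 24 lower members changed its direction, while Rps4x and Rpl8 did under both scalings and Rpl7 and Rpsa under the shift. Rpl10a, Rpl11, Rpl13a, Rps7 and Rps10 were no longer past 2-fold under either. Rps2 was at -0.56 under the shift, against -1.11 as deposited. Rps27l was past 2-fold lower with quantile normalization, at -1.54 against -0.58 as deposited.

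Other measures are given here beside the difference between P0 and E12.5. Within P0, some cells were among the highest for the lower members more often than others. For the 24 lower members, cell F3 was among the 4 highest P0 cells 22 times, E6 17 times and E5 16 times, while A8, G2, H2 and H3 were never among them. F3, E6 and E5 had 4498, 4182 and 4100 genes present and A8, G2, H2 and H3 had 2001, 2915, 3063 and 3062. The remaining P0 cells E2, C1, C8, B6, C5 and B5 were among the 4 highest 10, 9, 8, 6, 6 and 2 times. They had 3585, 3975, 2507, 3808, 2103 and 3006 genes present. F3, E6 and E5 were highest in both measures, while the order of the other P0 cells differed between them. Rpl38, for example, was at 12894, 9952 and 6846 in E6, E5 and F3, and at 395 to 812 in A8, G2, H2 and H3. Leaving out A8 and H3, an alternative added after the values were seen, gave 22 lower members. Leaving out A8 alone gave 22 of 37, against 12.6% of all genes compared. Leaving out H3 alone gave 22 of 37, against 13.5%.

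Of markers of other retinal cells, 5 ganglion cell genes were present in 20 of 65 combinations at P0 and in 9 of 55 at E12.5, and their summed signal was 308 to 43195 with a median of 2680 at P0, and 639 to 14715 with a median of 6482 at E12.5. The 3 amacrine markers were present in 10 of 39 combinations at P0 and 2 of 33 at E12.5, with sums of 330 to 25553 and a median of 1342 at P0, and 504 to 3436 and a median of 847 at E12.5. The 2 photoreceptor markers were present in 3 of 26 combinations at P0 and 0 of 22 at E12.5, with sums of 9.50 to 5499 and a median of 63.9 at P0, and 7.53 to 79.2 and a median of 34.6 at E12.5, and with Rcvrn absent from all 42 cells. The part of these cells and of the number of genes present in the result was not tested. Litter and handling cannot be told apart from stage.

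Neighboring lists did not show the same balance between P0 and E12.5. Of 30 mitochondrial ribosomal proteins compared, 5 were more than 2-fold lower and 9 higher at P0, with a median log2 ratio of 0.38. Among 37 translation factors 2 were lower and 8 higher (median 0.19), and among 33 proteasome subunits 2 were lower and 12 higher (median 0.77). Of 57 subunits of the respiratory chain and ATP synthase, a list added after the values were seen, 16 were lower and 11 higher (median -0.48).

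Members were also lower at P0 than at E16.5. For P0 over E16.5, 23 of 35 members were more than 2-fold lower and 0 higher, against 6.56% lower and 38.6% higher among 2898 genes. Without the 5 arrays 24 of 36 members were lower, against 18.3% of 2915 genes. The lowest ratios were those of Rps29 (-4.00), Rpl38 (-3.95), Rps26 (-3.78), Rplp2 (-3.18) and Rpl37a (-2.94), and the highest those of Rpl7a (0.17), Rplp0 (-0.15), Rpsa (-0.16), Rps3 (-0.22) and Rpl6 (-0.30). Both this comparison and that with E12.5 use the same P0 cells.

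For E16.5 over E12.5, 1 of 37 members was more than 2-fold lower and 1 higher, against 31.2% lower and 8.14% higher among 2433 genes. The median log2 ratio was 0.01 for the members and -0.36 for all genes. Without the 5 arrays it was again 1 lower and 1 higher, of 38 members, against 28.1% and 23.2% of 2378 genes. The lower member was Rpl14, by the probe set described above. The higher member was Rps28, with 2589 to 41301 and a median of 6973 in E16.5 cells, against 734 to 15579 and a median of 3159 in E12.5 cells, ranges that overlapped widely. Rps28 was present in 4 of 13 cells at P0, namely E2, E5, E6 and F3, with signals of 1954 to 2839.

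The pyrimidine run at the start was set beside the stage ratios as a description. Of 7 members with the run at the annotated base, 6 were more than 2-fold lower at P0 than at E12.5, with a median log2 ratio of -2.36. Of 25 members without it, 15 were lower, with a median of -1.11. Members without the run covered most of the range, from -3.42 for Rpl37a to 0.58 for Rpl7a. Those with it lay between -4.34 for Rpl38 and -1.41 for Rps10, apart from Rps6 at -0.16. The ratio of Rps6 was set by the floor, since its medians were 1120 at E12.5 and 87.8 at P0. Rpl14, which has the run, was at -3.39, also set by the floor, with medians of 10506 at E12.5 and 82.8 at P0. With probe sets of several symbols added, the medians of Rpl14 were 72700.6 at E12.5 and 25251.2 at P0. With the run allowed within 5 bases, the medians were -1.55 for 16 members with it and -1.30 for 16 members without it. The letters CCGGAAG, the core of sites read by ETS factors, were chosen after the promoters were seen and lay in the 300 bases around the start on either strand for 25 of 59 genes (42.4%), against 9.93% of all genes.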

How the data were processed

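Signals of 42 single retinal cells, 1 array of mouse 430 2.0 type each, were used as deposited. The authors computed these intensity values with MAS 5.0 and scaled each array to a target of 500 on a linear scale, from cDNA amplified by 35 cycles of PCR, of which 10 micrograms were labeled. The signals carry no counts, so that the number of genes present stood in for depth. Amplification and the rule of the highest probe set favor strong probe sets, and levels of different genes are not comparable.

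Of 45101 probe sets, 34958 had 1 symbol, 932 had several and 9211 were unnamed here. All 74 named members matched the RefSeq table of GRCm38.p6 by gene identifier. Ribosomal protein genes without an entry under the rule were not analysed here. Stages were taken from the labels. Cells are not replicates of a stage, so that no test was made and genes were called past 2-fold from stage medians, floored at 1000, for genes with a median of 1000 or more in either stage. Shares have exact (Clopper-Pearson) 95% intervals, and the limit of a count of 0 is 3 counts of the total. No 2 arrays were identical.

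The members and lists were chosen with earlier results of these data known. Members named in the text were the 12 in the fewest cells, the 5 with the widest and the 5 with the narrowest spread among those in all cells, the 5 highest and 5 lowest ratios of each pair of stages, the paralogs, the stalk proteins and Rpsa, and the 5 whose probe sets differed most. Other names were chosen after their values were seen. Python 3.11.15, NumPy 2.4.6, pandas 2.3.3, SciPy 1.17.1 and Matplotlib 3.10.9 were used, and the ratio was tested on simulated data. Alternatives were other levels for presence, other floors, other choices of probe sets, 2 other scalings, stage means, and leaving out arrays.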

Additional observations from a re-analysis of the deposited data

Results flagged for a closer look

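Of 39 values examined in the 4 E13.5 cells, 14 had 1 cell far from the other 3, and 13 of them were cell A6. These values share 1 array and are not independent. Chance alone gives about 1 in 20 under the rule used, but the rule was not applied to all genes. The count therefore says nothing particular to the members. The median signal of the whole array was 216 in A6, against 30.8 in A5, 36.2 in A8 and 35.9 in B3. The level of the hybridization controls was also highest on the array of A6, at 385411, and the part of array scale was not tested. The share of the summed signal held by the members was 8.70% in A6, and its median deviation over the 23 members present in every cell was 3.05 on the log2 scale. The log2 signals of A6 that stood apart were 18.66 for Rpl7, 18.68 for Rpl7a, 18.64 for Rps10, 18.60 for Rpsa, 18.27 for Rplp2, 18.24 for Rpl8, 18.19 for Rpl38, 17.76 for Rpl27, 17.04 for Rpl6, 16.77 for Rps26 and 16.64 for Rpl22. Cell A8 stood apart for Rpl3l at 2.56, far below the level for presence.

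The probe sets with several symbols, which are outside the main measurement, showed a signal for the 28 members that they alone measure. These members were present in 98.5% of combinations (1158 of 1176).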

How the results depend on the processing

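The choice of probe sets moved the counts most. With probe sets unmarked for shared probes, 4 members were in all 42 cells, 38.6% of combinations were present, the median cell held 36% of the members and 1.35% of the signal, and 5 of 9, 1 of 9 and 5 of 7 members compared were past 2-fold for P0 over E12.5, E16.5 over E12.5 and P0 over E16.5. With probe sets of several symbols added, the same values were 47 members, 94.2%, 95.9%, 7.57%, and 50, 1 and 53 of 71 members each. As reported they were 23 members, 77.8%, 78.3%, 4.70%, and 24 of 37, 2 of 37 and 23 of 35 members. Both settings change which genes are measured. Among all genes compared, the shares more than 2-fold lower in the same order of stages were 13.2%, 33.5% and 5.10% with unmarked probe sets. They were 17.0%, 29.1% and 10.3% with probe sets of several symbols added. The share of combinations present was 81.2% at a level of 500, 74.7% at 2000 and 74.6% with the median of the probe sets of a gene.

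For E16.5 over E12.5, 4 members (1 lower and 3 higher) were past 2-fold with quantile normalized arrays, and 4 without E16.5 cells D5, E3 and E5, an alternative chosen after seeing the data. The cause was not tested. With all cells as deposited, 31.2% of all genes compared were lower and 8.14% higher. Quantile normalization also moved the balance of all genes, with 22.1% lower and 15.5% higher for E16.5 over E12.5 and 15.5% lower and 27.7% higher for P0 over E16.5, and the shift to genes present in every cell gave 11.3% lower and 37% higher for P0 over E12.5. Other floors, stage means of log2 signals and leaving out the 5 E16.5 arrays or E13.5 A6 and E16.5 F1 kept the counts of members past 2-fold within 1.5 times.

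Leaving out each cell in turn gave 23 to 24 members in all cells, 77.5 to 78.1% of combinations, 4.67 to 4.73% of the signal, and 22 to 25, 2 to 3 and 23 to 26 members past 2-fold. With no cell left out, the shares of all genes more than 2-fold lower in the same order were 14.4%, 31.2% and 6.56%. The median percent of members per cell stayed at 78.3%. The median percent of genes present per cell stayed at 34.2% for mitochondrial ribosomal proteins and 56.9% for translation factors and was 61.5 to 64.1% for proteasome subunits. No paired analysis was possible because the cells of different stages are not paired and no test was made.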
